A study of Mus musculus with 3 samples.

Results

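The nuclei described here were macrophage nuclei of mouse heart that held RNA of Trem2, Lgals3, Gpnmb, Adam8 or Tnfaip2 and none of the resident macrophage genes Cd163 and Lyve1. They numbered 65 of 23823 deposited barcodes: 17 of 6354 in the MI-DAPA library, 36 of 7725 in MI-NS and 12 of 9744 in Sham-NS. Heart tissue had been taken 2 weeks after surgery, and single-nucleus RNA was counted as UMIs, each of which stands for 1 captured RNA molecule. MI-DAPA mice had a myocardial infarction and dapagliflozin, an inhibitor of the sodium-glucose cotransporter SGLT2. MI-NS mice had an infarction with NS, and Sham-NS mice had sham surgery with NS. The labels do not spell out NS and give no strain, sex, age, dose or number of mice. Each group was 1 library, so that nothing below compares replicate animals, and each interval covers counting error only.

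The rule that chose the nuclei read 5 gene groups. A nucleus first had to have at least 300 detected genes, at most 10% mitochondrial UMIs and under 3% of its UMIs from the cardiomyocyte genes Ttn, Ryr2, Myh6 and Mhrt, which 15758 barcodes did. It then needed at least 2 UMIs over the 6 macrophage genes Csf1r, Mrc1, Adgre1, F13a1, Mertk and Dock2, and at most 1 UMI over the endothelial genes Pecam1 and Cdh5 and the fibroblast genes Pdgfra and Dcn. These 1847 nuclei are called macrophage nuclei below. Members had at least 2 UMIs over the 5 marker genes and 0 over Cd163 and Lyve1. The other 1133 Cd163-negative macrophage nuclei had 0 or 1 marker UMI, and 649 macrophage nuclei had a UMI of Cd163 or Lyve1. The marker levels are therefore a description of the choice and not a result.

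Macrophages in the healthy heart are largely long-lived resident cells marked by Cd163, Lyve1, Timd4 and Folr2. After infarction, circulating monocytes that carry the chemokine receptor Ccr2 enter the tissue and mature into macrophages that clear dead cells and help to form the scar. TREM2 is a lipid-sensing receptor that signals through the adaptor TYROBP, and macrophages that carry it in atherosclerosis, fat and infarcted heart have been linked to lipid uptake and the clearing of debris. Galectin-3, from Lgals3, is a galactose-binding lectin secreted by activated macrophages, GPNMB is a glycoprotein of lysosomes and of the cell surface, ADAM8 is a membrane metalloprotease of leukocytes, and Tnfaip2 is a gene induced by tumour necrosis factor.

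The promoters of the 4 genes that mark these macrophages are shown because the choice of nuclei rests on them. Each sequence runs from 250 bases before to 50 bases after the gene's RefSeq start on GRCm38.p6, 5′ to 3′ on the gene's own strand. Capitals mark TGANTCA, the AP-1 motif, and N stands for any base. Trem2 lies on chromosome 17 (gene 48346401 to 48354147, plus strand) with its promoter at chr17:48346151-48346450. Gpnmb lies on chromosome 6 (49036546 to 49070929, plus strand; promoter chr6:49036268-49036567), Lgals3 on chromosome 14 (47367751 to 47386160, plus strand; promoter chr14:47373610-47373909) and Adam8 on chromosome 7 (139978932 to 139992562, minus strand; promoter chr7:139992513-139992812). Gene spans are from the GENCODE M21 annotation of the same build.
Trem2: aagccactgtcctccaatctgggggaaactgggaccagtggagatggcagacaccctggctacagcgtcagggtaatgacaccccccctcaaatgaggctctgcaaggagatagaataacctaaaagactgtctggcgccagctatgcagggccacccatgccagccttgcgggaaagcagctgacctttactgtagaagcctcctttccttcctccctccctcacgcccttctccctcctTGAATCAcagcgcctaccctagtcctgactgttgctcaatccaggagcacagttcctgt
Gpnmb: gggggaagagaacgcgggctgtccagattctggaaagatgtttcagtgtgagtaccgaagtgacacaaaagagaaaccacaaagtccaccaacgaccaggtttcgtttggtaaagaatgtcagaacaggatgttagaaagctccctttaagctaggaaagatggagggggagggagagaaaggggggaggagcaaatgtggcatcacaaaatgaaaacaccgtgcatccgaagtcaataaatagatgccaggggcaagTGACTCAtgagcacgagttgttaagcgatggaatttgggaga
Lgals3: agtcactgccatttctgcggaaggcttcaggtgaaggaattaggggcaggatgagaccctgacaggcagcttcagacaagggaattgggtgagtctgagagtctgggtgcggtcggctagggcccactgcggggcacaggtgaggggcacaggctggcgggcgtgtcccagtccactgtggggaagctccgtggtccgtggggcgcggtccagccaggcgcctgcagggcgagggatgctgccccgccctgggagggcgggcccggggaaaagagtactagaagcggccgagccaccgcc
Adam8: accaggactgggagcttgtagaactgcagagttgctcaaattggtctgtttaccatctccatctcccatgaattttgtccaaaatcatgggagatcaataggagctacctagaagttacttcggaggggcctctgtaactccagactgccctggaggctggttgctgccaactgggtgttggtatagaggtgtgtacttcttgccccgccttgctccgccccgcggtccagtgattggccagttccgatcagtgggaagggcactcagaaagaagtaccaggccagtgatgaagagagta

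TGANTCA was found once in the Trem2 window, its first base lying at position -9 from the start, and once in the Gpnmb window, at position 8. The Lgals3 and Adam8 windows held none. TCATGTG and TCACGTG, motifs of the MiT/TFE factors that control lysosomal genes, and GAGGAAGT, the motif of the myeloid factor PU.1, were in none of the 4 windows on either strand, and none of the 4 motifs contains another. Over all 32851 RefSeq promoters of 300 bases, 7.81% held TGANTCA, 3.77% TCATGTG, 3.77% TCACGTG and 3.20% GAGGAAGT. In the promoters of a list of lysosomal genes, TCACGTG was present in 7 of 22, TGANTCA in 4, TCATGTG in 3 and GAGGAAGT in 1. No binding or chromatin was measured, so that a match describes letters alone.

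The marker genes were detected sparsely even in the chosen nuclei. Trem2 had 17 UMIs in 9 of 17 MI-DAPA members, 36 UMIs in 23 of 36 MI-NS members and 10 UMIs in 5 of 12 Sham-NS members. Lgals3 had a UMI in 5 MI-DAPA, 13 MI-NS and 2 Sham-NS members. Gpnmb was seen in 2 MI-DAPA members and 4 MI-NS members, and in 0 of the 12 Sham-NS members, a count that allows a share of up to 25.0%. Adam8 had a UMI in 3 MI-DAPA, 4 MI-NS and 2 Sham-NS members. Of the 65 members, 39 had exactly 2 marker UMIs, and the highest sum was 6. Just outside the rule stood 48 MI-DAPA, 99 MI-NS and 54 Sham-NS nuclei with 1 marker UMI.

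About as many members carried several marker genes as a single one. At least 2 of the 5 genes were seen in 33 members and at least 3 in 10, whereas 32 rested on 1 gene alone. That gene was Trem2 in 15, Tnfaip2 in 13, Lgals3 in 3, Gpnmb in 1 and Adam8 in 0. Trem2 and Lgals3, the pair in the name, were seen together in 8 members, of which 7 were in MI-NS and 1 in MI-DAPA. Trem2 and Tnfaip2 met in 15.

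**Figure D1:**
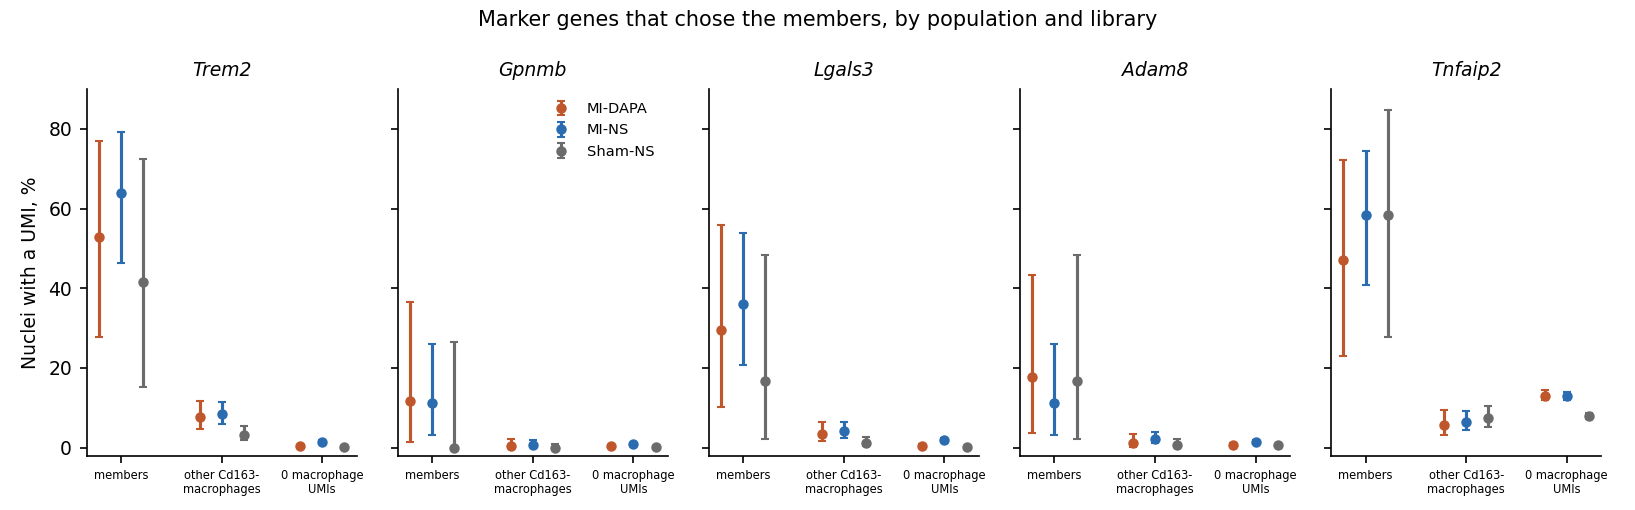
Share of nuclei with at least 1 UMI of each marker gene (y axis, percent) in members, in other Cd163-negative macrophage nuclei and in nuclei with 0 UMIs over the 6 macrophage genes, by library; bars are 95% Clopper-Pearson intervals. Members were chosen on these genes, and the rule limits the other Cd163-negative macrophage nuclei to 1 marker UMI. Tnfaip2, unlike Trem2, was at least as frequent in nuclei without macrophage UMIs as in those others.

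Outside the members, Trem2 and Lgals3 were more frequent in Cd163-negative macrophage nuclei than in nuclei without macrophage UMIs, and Gpnmb and Tnfaip2 were not. The 2 sides are not alike, since the rule limits the other macrophage nuclei to 1 marker UMI. Of nuclei without macrophage UMIs, 328 of 12113 had at least 2. Trem2 was seen in 6.35% of the other Cd163-negative macrophage nuclei and in 0.760% of nuclei without macrophage UMIs, and Lgals3 in 2.91% and 0.900%. Gpnmb was seen in 0.353% and 0.471%, and Adam8 in 1.41% (0.809 to 2.28) and 0.999% (0.830 to 1.19). The 6 members with Gpnmb are left out of its 0.353%, so that these shares do not compare Gpnmb over all Cd163-negative macrophage nuclei. At least 2 UMIs over those 4 genes were held by 38 of 1198 Cd163-negative macrophage nuclei, or 3.17%. They were held by 6 of 1225 nuclei, or 0.490%, of a fibroblast gate (at least 2 UMIs of Pdgfra and Dcn, 0 of Pecam1 and Cdh5 and no macrophage UMI), and by 61 of 12113 nuclei of any kind without macrophage UMIs, or 0.504%. With Tnfaip2 in the sum the share was 5.43% in Cd163-negative macrophage nuclei and 5.47% in fibroblast-gated nuclei. An endothelial gate (at least 2 UMIs of Pecam1 and Cdh5, 0 of Pdgfra and Dcn and no macrophage UMI) was lower. There 12 of 802 nuclei, or 1.50%, had at least 2 UMIs over the 5 genes, and Tnfaip2 was seen in 6.98%. Tnfaip2 alone was seen in 9.35% of Cd163-negative macrophage nuclei, 21.1% of fibroblast-gated nuclei and 11.03% of nuclei without macrophage UMIs, whose median depths were 704.5, 872 and 705 UMIs. Without Tnfaip2, 27 of the 65 members would not have been chosen, namely 5 in MI-DAPA, 15 in MI-NS and 7 in Sham-NS. The other 38 had at least 2 UMIs over Trem2, Gpnmb, Lgals3 and Adam8.

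Beyond the genes of the rule, the members carried general myeloid genes. All 16 genes of a list of general myeloid genes, such as the phosphatase gene Ptprc, the transcription factor gene Spi1 and the lysozyme gene Lyz2, were seen in MI-NS members, 14 in MI-DAPA members and 13 in Sham-NS members. Their sum was 5437, 6170 and 4169 CPM (UMIs of the gene scaled to the total UMIs of the summed nuclei) in MI-DAPA, MI-NS and Sham-NS members, against 4780, 5071 and 4597 in the other Cd163-negative macrophage nuclei. Lyz2 had 3, 25 and 2 UMIs in members, or 206, 665 and 163 CPM, against 236, 516 and 516 CPM in the others. Nuclei without macrophage UMIs had 9.95, 32.0 and 23.8 CPM of Lyz2. The 2 UMIs of the Sham-NS members have an interval of 19.8 to 591 CPM, which holds that level, while the intervals of MI-DAPA (42.6 to 603) and MI-NS members (430 to 981) lie above it. Tyrobp, the partner of TREM2, had only 1 MI-DAPA, 3 MI-NS and 2 Sham-NS UMIs in members.

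Members made up a larger share of macrophage nuclei in both infarct libraries than in the sham library. The share was 4.62% in MI-DAPA (2.71 to 7.29, 95% Clopper-Pearson; 17 of 368), 5.71% in MI-NS (4.03 to 7.82; 36 of 630) and 1.41% in Sham-NS (0.732 to 2.46; 12 of 849). MI-NS over Sham-NS was a ratio of 4.04 (exact conditional binomial interval 2.06 to 8.53). MI-DAPA over MI-NS was 0.808 (0.426 to 1.48), an interval that holds 1 as well as a halving. Of all nuclei that passed the quality gate, members were 0.465% in MI-DAPA, 0.615% in MI-NS and 0.192% in Sham-NS. Macrophage nuclei with Cd163 or Lyve1 could not be members. Among Cd163-negative macrophage nuclei the share was 6.18% in MI-DAPA (17 of 275, 3.64 to 9.71). It was 7.38% in MI-NS (36 of 488, 5.22 to 10.07) and 2.76% in Sham-NS (12 of 435, 1.43 to 4.77). On that base MI-NS and Sham-NS lay closer together.

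The ratio of MI-NS to Sham-NS was 4.04 under the rule, higher without Tnfaip2 and lower at equal depth, with wide intervals that overlap. Without Tnfaip2 the members were 12 of 368 macrophage nuclei in MI-DAPA, 21 of 630 in MI-NS and 5 of 849 in Sham-NS, and MI-NS over Sham-NS was 5.66 (2.08 to 19.2). When every nucleus was thinned to 500 UMIs and gated again, a setting added after the data had been seen, they were 10 of 299 in MI-DAPA (3.34%), 10 of 477 in MI-NS (2.10%) and 8 of 682 in Sham-NS (1.17%). At that equal depth MI-NS over Sham-NS was 1.79 (0.635 to 5.21), and MI-DAPA over MI-NS was 1.60 (0.596 to 4.27), so that neither interval leaves out 1. Macrophage nuclei had median depths of 652.5 UMIs in MI-DAPA, 739.5 in MI-NS and 718 in Sham-NS. With nuclei thinned to 1000 UMIs, the planned setting, members were 3 of 53 in MI-DAPA, 8 of 153 in MI-NS and 3 of 171 in Sham-NS. MI-NS over Sham-NS was then 2.98 (0.715 to 17.4) and MI-DAPA over MI-NS 1.08 (0.185 to 4.51). A difference between MI-NS and Sham-NS was therefore not detectable at either equal depth, and none between the infarct libraries in any of these settings. Each thinning was a single random draw. The 1000-UMI setting left out shallower nuclei, so that 1759 quality-gate nuclei remained in MI-NS and 1137 in Sham-NS. Both thinned settings also held fewer members than the rule, and the part of that loss was not tested.

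**Figure D2:**
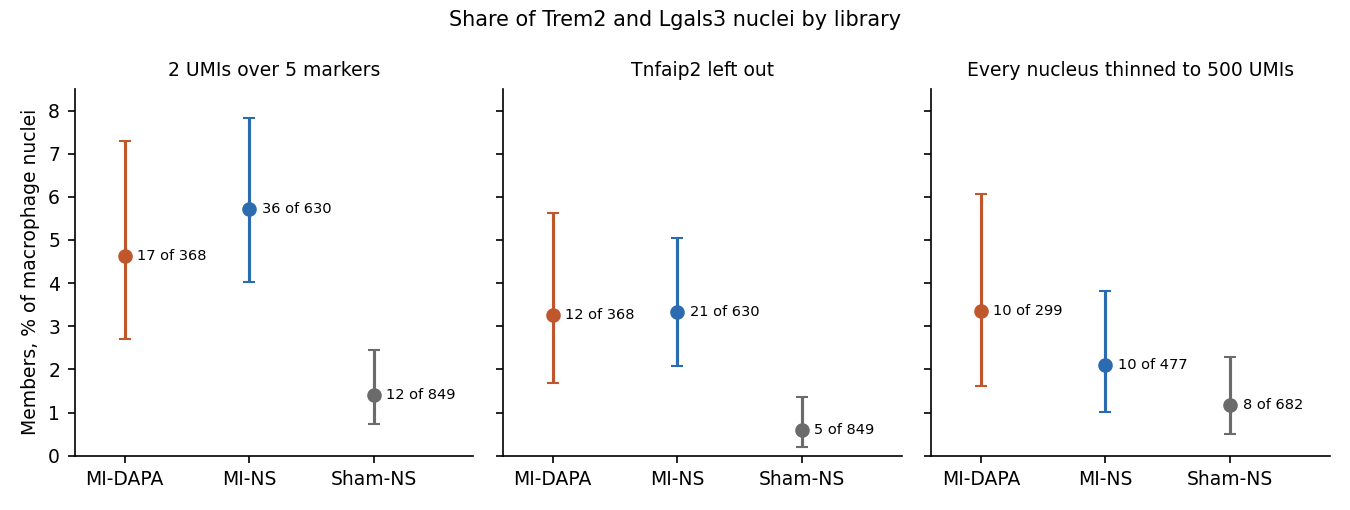
Members as a percent of macrophage nuclei (y axis) in the MI-DAPA, MI-NS and Sham-NS libraries under the rule, without Tnfaip2 and with every nucleus thinned to 500 UMIs; points are shares with counts beside them and bars 95% Clopper-Pearson intervals. The Sham-NS interval lies below both others without Tnfaip2 and overlaps them at 500 UMIs.

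The makeup of the macrophages around the members differed too. Nuclei with a UMI of Cd163 or Lyve1 were 25.3% of macrophage nuclei in MI-DAPA and 22.5% in MI-NS, against 48.8% in Sham-NS. The requirement of 0 UMIs of these genes therefore removed a larger share of the sham nuclei. Among the nuclei it removed, at least 2 marker UMIs were held by 7 of 93 in MI-DAPA (7.53%), 10 of 142 in MI-NS (7.04%) and 10 of 414 in Sham-NS (2.42%), so that marker RNA was not limited to nuclei without Cd163. A wider gate, chosen after the data had been seen and asking for 1 UMI of Trem2, Gpnmb, Lgals3 or Adam8, held 48 MI-DAPA, 100 MI-NS and 29 Sham-NS nuclei. They were 13.04% of macrophage nuclei in MI-DAPA, 15.9% in MI-NS and 3.42% in Sham-NS, with MI-NS over Sham-NS at 4.65 (3.05 to 7.29) and MI-DAPA over MI-NS at 0.822 (0.570 to 1.17).

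Members were then set against the other Cd163-negative macrophage nuclei of the same 3 libraries, which is the only comparison with replication, the 3 libraries being of different treatments. UMIs were summed per library and tested with edgeR's quasi-likelihood test, library as a block, over 6353 genes. No gene passed an adjusted p of 0.05, so that the background of calls was 0.0% higher and 0.0% lower. At an unadjusted p under 0.05, 15 genes were higher and 271 lower, and DESeq2 also called 0 genes, with 16 higher and 44 lower unadjusted. The normalization set how these split: edgeR had 51 higher and 163 lower with DESeq2 size factors, 97 and 126 without factors, and 111 and 105 with TMM factors over the genes with at least 300 UMIs. The median log2 ratio of all genes was -0.37 in the planned fit (TMM over all tested genes), against -0.19, -0.08 and -0.03 in those 3 fits. The log2 ratios below are from the planned fit, so that they carry an offset that depends on the scaling and are read against -0.37.

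The pair of neighbouring immune receptor genes Lilrb4a and Lilr4b passed the test in some settings added after the data had been seen, but not in the planned fit. They lie side by side on chromosome 10 (51490956 to 51496611 and 51480632 to 51486703, both on the plus strand) and are similar in sequence, so that the division of reads between them is uncertain. Lilrb4a encodes an inhibitory receptor and Lilr4b a close relative. Lilrb4a stood at 2753 CPM in MI-DAPA members, 1702 in MI-NS members and 899 in Sham-NS members, against 1334, 851 and 795 in the other Cd163-negative nuclei. It was higher in members in 3 of 3 libraries and was seen in 13 of 17, 26 of 36 and 8 of 12 of them, with a log2 ratio of 0.46 (SE 0.311, edgeR adjusted p = 0.999). With TMM factors taken over the 440 genes with at least 300 UMIs, a setting chosen after the data had been seen, the ratio was 0.90 (SE 0.198) with an edgeR adjusted p of 0.0349. Of 4 normalizations tried, that one gave a call and the others gave none. Over all 24 settings Lilrb4a was higher in the nuclei tested in 22 and past the threshold in 2, with adjusted p from 0.00273 to 1.0. Some of these settings did not test the members. They took the wider gate, or nuclei with exactly 1 UMI of Trem2, Gpnmb, Lgals3 and Adam8 that were not members. The edgeR adjusted p of 0.00273 came from the wider gate with TMM over genes with at least 300 UMIs.

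Lilr4b had 1858, 1436 and 490 CPM in MI-DAPA, MI-NS and Sham-NS members, against 1179, 795 and 496 in the other nuclei. Its level in members was thus higher in both infarct libraries and level with the others in sham. The log2 ratio was 0.27 (SE 0.325, edgeR adjusted p = 0.999). Nuclei of the wider gate set against nuclei with 0 marker UMIs, so that both sides of the comparison changed, gave a ratio of 0.81 (SE 0.176) with an edgeR adjusted p of 0.0232, the single call of that setting. Members against nuclei with 0 marker UMIs gave 0.46 (SE 0.298, edgeR adjusted p = 1.0). Nuclei with exactly 1 UMI of the 4 genes, none of them members, had 1304 CPM of Lilr4b in MI-NS and 1352 in Sham-NS, where nuclei with 0 marker UMIs had 714 and 475.

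A list of lysosomal genes summed to a higher level in members than in the other Cd163-negative macrophage nuclei in 3 of 3 libraries, without any gene passing the test. Of 26 tested genes of a lysosome list, 0 passed the test in either direction. In log2 ratio 13 were higher and 13 lower, and at an unadjusted edgeR p under 0.05 there were 0 higher and 1 lower. Against the median of all genes, 17 lay above and 9 below, and their median log2 ratio was -0.01 beside -0.37 over all genes. The list summed to 5368, 6861 and 4496 CPM in MI-DAPA, MI-NS and Sham-NS members, against 3955, 5531 and 4097 in the others. Members over others was a ratio of 1.36 (1.06 to 1.72) in MI-DAPA, 1.24 (1.09 to 1.41) in MI-NS and, for the sham library, 1.10 (0.822 to 1.44). Macrophage nuclei with Cd163 or Lyve1 had 3963, 6417 and 4696 CPM of the list. That was inside the interval of the members in MI-NS (6049 to 7751) and above their sum in Sham-NS. Lists of fusion genes (1.55, 1.33 and 1.27) and matrix genes (1.09, 1.22 and 1.18) also had ratios above 1 in 3 of 3 libraries. Psap, the precursor of the saposins that help to break down glycolipids, had 1376, 1090 and 572 CPM in members and 509, 805 and 568 in the others. Its log2 ratio was 0.33 (SE 0.333, edgeR adjusted p = 0.999). Cd63 and Tcirg1 are not on that list. Cd63, a membrane protein of late endosomes and lysosomes, had 413, 266 and 163 CPM in members and 32.2, 93.1 and 45.9 in the others. That is 6, 10 and 2 UMIs, with a log2 ratio of 1.87 (SE 0.616, edgeR adjusted p = 0.827). Tcirg1, a subunit of the proton pump that acidifies lysosomes, had 2202, 1649 and 1635 CPM in members and 1243, 1072 and 1326 in the others.

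Cd74, Clec10a and Maf were lower in members in the sums but did not pass the test. Cd74, the invariant chain of class II molecules, had 68.8 CPM in MI-DAPA members, 239 in MI-NS and 490 in Sham-NS, against 498, 893 and 574 in the other nuclei. The log2 ratio was -1.77 (SE 0.435, edgeR adjusted p = 0.316), lower in members in 3 of 3 libraries. Members held 1, 9 and 6 UMIs of Cd74. The Sham-NS interval (180 to 1068 CPM) holds the level of the others, and those of MI-DAPA (1.74 to 383) and MI-NS (109 to 454) lie below it. Clec10a, a lectin receptor, had 206, 186 and 0 CPM in members and 289, 828 and 169 in the others, with a log2 ratio of -1.99 (SE 0.532, edgeR adjusted p = 0.316). That is 3, 7 and 0 UMIs. The intervals of MI-DAPA (42.6 to 603) and Sham-NS members (0 to 302) hold the level of the others, and that of MI-NS (74.8 to 384) lies below it. Of 16 tested resident macrophage genes, 0 passed, 3 lay above the median of all genes and 13 below, with a median log2 ratio of -0.89. Their sum was 4817, 4601 and 5150 CPM in members and 6217, 6289 and 5650 in the others. The list is not independent of the choice, since members lack Cd163 and Lyve1, though the other nuclei lack them too.

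Maf, a transcription factor of tissue macrophages, was uneven among the members. It had 1239 CPM in MI-DAPA members, 319 in MI-NS and 327 in Sham-NS, against 1270, 1012 and 976 in the other nuclei. The MI-DAPA members thus held as much as other macrophages. The log2 ratio was -1.34 (SE 0.360, edgeR adjusted p = 0.316). In nuclei with exactly 1 UMI of the 4 genes Maf was not low, at 997 CPM in MI-NS and 1924 in Sham-NS.

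**Figure D3:**
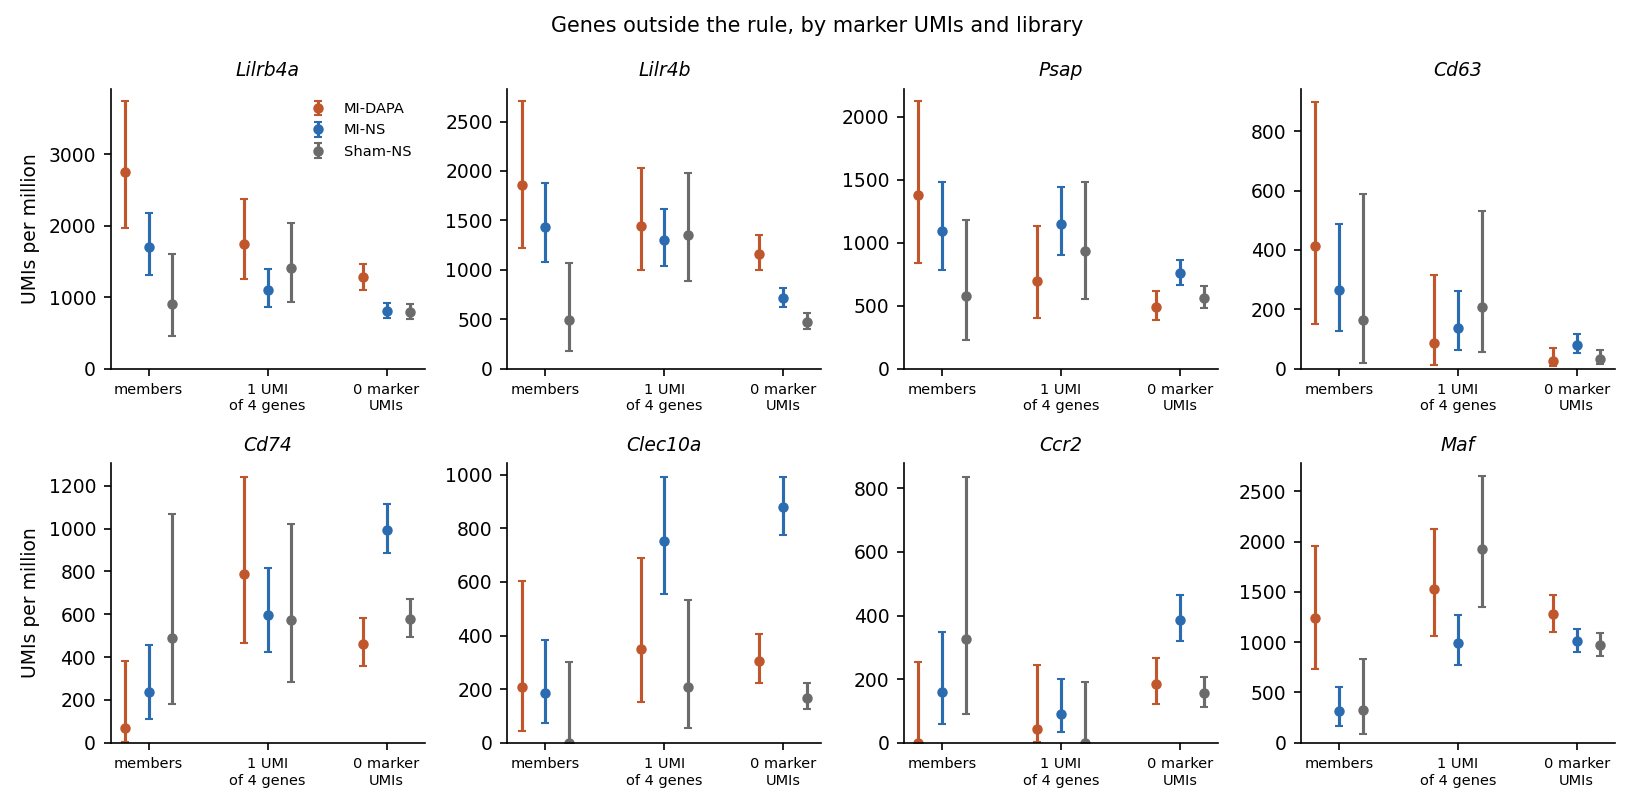
CPM (y axis) of 8 genes that the rule did not read, in members, in nuclei with exactly 1 UMI of Trem2, Gpnmb, Lgals3 and Adam8 and in nuclei with 0 marker UMIs, by library; bars are exact 95% Poisson intervals of the sums. Over the 3 kinds of nuclei, Lilrb4a had 1702, 1104 and 803 CPM in MI-NS but 899, 1404 and 789 in Sham-NS, and Cd74 had 239, 598 and 995 in MI-NS but 68.8, 786 and 463 in MI-DAPA, so that the order was not the same in every library.

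Recruitment genes were sparse. Ccr2 had 0, 6 and 4 UMIs in MI-DAPA, MI-NS and Sham-NS members, or 0, 160 and 327 CPM, against 166, 332 and 152 in the other Cd163-negative nuclei. In MI-NS, nuclei with exactly 1 UMI of the 4 genes had 92.0 CPM of Ccr2 and nuclei with 0 marker UMIs had 387. Between those 2 sets of nuclei over the 3 libraries, Ccr2 had a log2 ratio of -2.29 with an edgeR adjusted p of 0.0768. H2-Aa, a class II gene, had 1, 7 and 3 UMIs in members.

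Other groups showed no call either. Of 12 tested genes of the lipid-associated programme that goes with TREM2, 6 lay above the median of all genes and 6 below. Apoe, the lipid carrier that TREM2 binds, had 688, 1702 and 654 CPM in MI-DAPA, MI-NS and Sham-NS members and 713, 1930 and 1392 in the others. Fabp5 had 1, 4 and 0 UMIs in members, Cd9 had 1, 1 and 0, and Spp1, which encodes osteopontin, had 0, 1 and 0. Matrix genes had 10 of 15 above the median of all genes, Mmp12 having 1 UMI in each library. Iron and oxidant genes had 9 of 13 above it, phagocytosis genes 11 of 20, sterol genes 8 of 18, inflammatory genes 8 of 19 and interferon genes 7 of 19. Il1b had 1, 1 and 0 UMIs and the inflammasome gene Nlrp3 0, 1 and 0. The drug's target gene Slc5a2 and its relative Slc5a1 had 0 UMIs in members and in the other Cd163-negative macrophage nuclei. The lysosomal transcription factor gene Mitf had 2, 4 and 2 UMIs in members.

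Between libraries the members could be compared for few genes, and without any test. MI-NS over Sham-NS had 149 genes with at least 30 UMIs over both, of which 13 were at least 2-fold higher and 13 at least 2-fold lower, 8.72% each way, with a median log2 ratio of -0.15. MI-DAPA over MI-NS had 169, of which 19 were at least 2-fold higher (11.2%) and 7 at least 2-fold lower (4.14%), with a median of 0.19. The MI-NS library stands in both comparisons, so that a gene high or low in it moves both.

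In members, the genes named on the higher side of MI-NS over Sham-NS were C4b, Ms4a7, Pou2f2, Lilr4b, Sat1 and Apoe. Complement C4b had 32 UMIs in MI-NS members and 0 in Sham-NS members, at least 3.47-fold higher against a floor of 3 counts in the Sham-NS library. Of those 32, 19 were in 1 nucleus of 1010 UMIs. Fibroblast markers summed to 2207 CPM in MI-NS members and 654 CPM in Sham-NS members, and their part in the C4b difference was not tested. Ms4a7, a membrane protein gene of macrophages, had 37 UMIs in 17 of 36 MI-NS members and 1 in Sham-NS, a log2 ratio of 3.02 (1.02 to 8.93) beside 1.44 in the other Cd163-negative nuclei. Lilr4b had 54 and 6 UMIs, a log2 ratio of 1.45 (0.33 to 3.06) beside 0.68 in the others. Apoe had 64 and 8 UMIs, a log2 ratio of 1.30 (0.32 to 2.65) beside 0.47, and 20 of the 64 were in 1 nucleus, also of 1010 UMIs. The transcription factor gene Pou2f2 had a log2 ratio of 1.503 beside 0.92, and Sat1, a polyamine enzyme gene, 1.36 beside 0.60.

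On the lower side stood Ankrd12 and Prrc2c. Ankrd12 had 21 UMIs in MI-NS members and 20 in Sham-NS members, a log2 ratio of -1.55 beside -0.77 in the other Cd163-negative nuclei. Prrc2c had 30 and 21 UMIs, a log2 ratio of -1.12 beside -0.38. Each of these 8 genes had the same direction in the other macrophages of these libraries.

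MI-DAPA over MI-NS was led by Maf and by heart muscle genes. Maf had 18 UMIs in MI-DAPA members and 12 in MI-NS members, a log2 ratio of 1.94 (0.82 to 3.14), beside 0.33 in the other Cd163-negative nuclei. The muscle genes Tnnt2, Myh6 and Ttn had ratios of 1.94, 1.83 and 1.75, beside 0.58, 1.18 and 0.75 in the others. Ttn and Myh6, unlike Tnnt2, are among the cardiomyocyte genes that the quality gate held under 3% of a nucleus's UMIs. Levels of Ttn and Myh6 were therefore limited by the choice of nuclei, in members and in the others. The effect of that limit on the ratios was not tested. Both genes also count in the sum of cardiomyocyte markers. Cardiomyocyte markers, 10 of 11 seen in MI-DAPA and in MI-NS members with Myh7 at 0, summed to 6813, 3138 and 4414 CPM in MI-DAPA, MI-NS and Sham-NS members, against 6158, 3825 and 6238 in the others. Their part in the comparison was not tested. Tasor, a gene-silencing factor gene, had a ratio of 1.44 beside 0.52, and the interferon-induced ligase gene Rnf213 1.30 beside -0.05.

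The genes lower in MI-DAPA than in MI-NS members were C4b, Ifi203 and Apoe. C4b had 1 UMI in MI-DAPA and 32 in MI-NS members, a log2 ratio of -3.07 (-8.98 to -1.05) beside -1.13 in the others. Ifi203, an interferon-inducible gene, had 3 and 32 UMIs, a log2 ratio of -1.84 (-4.39 to -0.37) beside 0.06. Apoe had 10 and 64 UMIs, a log2 ratio of -1.25 (-2.43 to -0.34) beside -1.43, so that the lower Apoe was shared with other macrophages. Without the members above the 99th percentile of depth of their library, 0 of 110 measurable genes were at least 2-fold lower in MI-DAPA. Measurable again meant at least 30 UMIs over both libraries, a minimum that C4b and Ifi203 passed only narrowly with all members. That 0 therefore does not show that the differences of C4b and Ifi203 were lost. No difference between members and other macrophages in these ratios was tested.

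**Figure D4:**
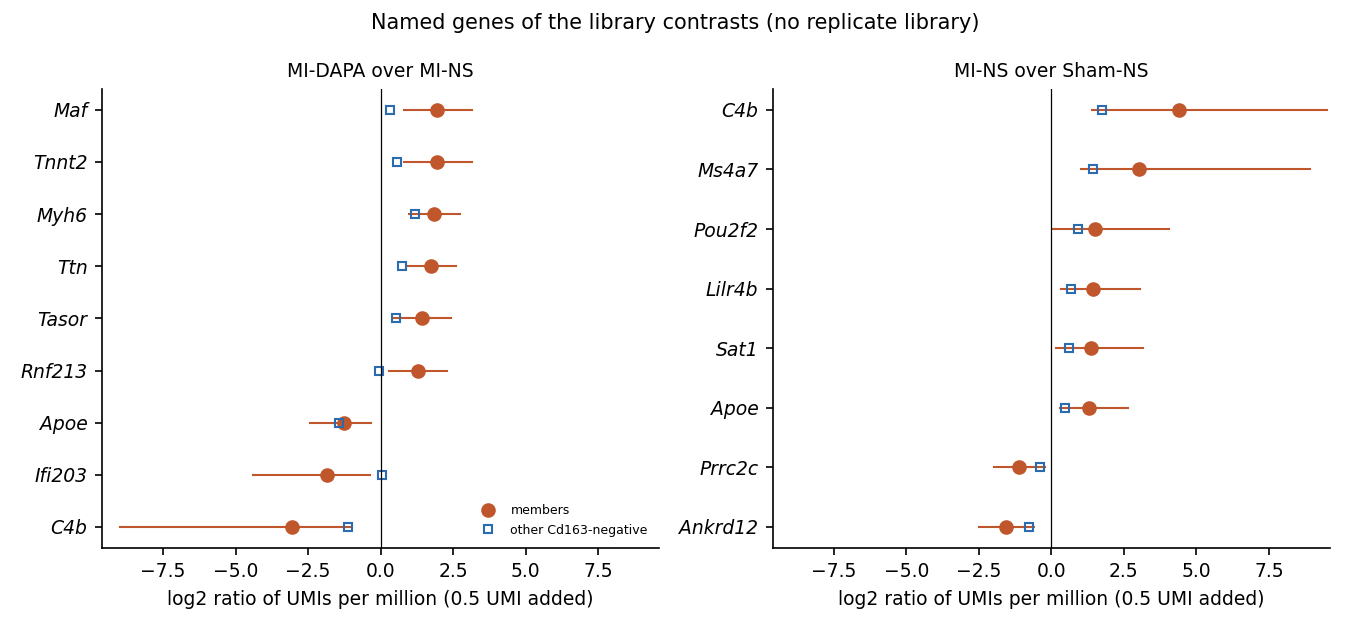
Log2 ratio of CPM between libraries (x axis, 0.5 UMI added) for the named genes in members, with exact 95% intervals as lines, and in other Cd163-negative macrophage nuclei as open squares. The C4b point rests on 0 UMIs in Sham-NS members, so that it is no measured size; its upper limit is unbounded and the line is cut at the edge of the plot.

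RNA of other cell types was present in the members. Fibroblast markers summed to 1032, 2207 and 654 CPM in MI-DAPA, MI-NS and Sham-NS members and to 1099, 2003 and 571 in the others. Endothelial markers summed to 963, 1037 and 1308 and to 1104, 833 and 1294. B cell markers had 9, 32 and 6 UMIs, with Cd79a, Ms4a1 and Pax5 at 0. T and NK cell markers had 0, 3 and 2 UMIs. Of the 9 neutrophil markers, Csf3r, the receptor of the growth factor G-CSF, had 12, 18 and 1 UMIs in members, or 826, 479 and 81.7 CPM, against 155, 237 and 132 CPM in the others. It was spread over 6 of 17 MI-DAPA and 12 of 36 MI-NS members, at 5.31 (2.47 to 10.7) and 2.02 (1.15 to 3.37) times the others, while S100a8, S100a9 and 6 more of the list were at 0. Its log2 ratio over the libraries was 1.01 (SE 0.448, edgeR adjusted p = 0.974). Of 32 mesothelial UMIs in MI-NS members, 28 were in 1 nucleus of 4250 UMIs, and all 15 pericyte and smooth muscle UMIs in MI-DAPA members were in 1 nucleus of 2382. Of 39 cell cycle UMIs in Sham-NS members, 36 were in 1 nucleus. Of the members, 1 in MI-DAPA and 2 in MI-NS lay above the 99th percentile of depth in their library, and the part of mixed nuclei was not tested. The libraries shared 13 barcodes between MI-DAPA and MI-NS, 20 between MI-DAPA and Sham-NS and 19 between MI-NS and Sham-NS, and 0 members were among them.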

How the data were processed

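The authors deposited UMI counts per gene and barcode as 3 filtered matrices, made with Cell Ranger 6.0.1 per the file headers. Per the submitters' processing notes the build was mm10 and Seurat was used; their roles are not given in the sources used here. The labels' protocols give detergent lysis, an iodixanol cushion and 10x Chromium 3′ chemistry; the use of intronic reads is not given in the sources used here. The deposited barcodes held 8871086 UMIs in MI-DAPA, 10113430 in MI-NS and 13873275 in Sham-NS, and members held 14531, 37603 and 12233.

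Nuclei were gated as described, with Python 3.11.15. No doublet caller was run. Levels are CPM over the summed nuclei (exact Poisson intervals), and shares have Clopper-Pearson intervals. Log2 ratios of genes between libraries add 0.5 UMI to each sum, while ratios of shares and the other ratios of sums add none. Intervals of these ratios are exact conditional binomial intervals of the counts as they stand. All intervals are at 95%. UMIs of 1 nucleus are not independent, so that intervals are too narrow. Genes with at least 30 UMIs over the 6 sums were tested with edgeR 4.0.16 (TMM, quasi-likelihood, library as block, Benjamini-Hochberg) and DESeq2 1.42.0. The 17 genes the rule read after the quality gate were left out. On simulated sums the planned edgeR fit put unchanged genes at a median log2 ratio of -0.351, and TMM over genes with at least 300 UMIs at -0.023. The planned fit called 2% of genes simulated 2-fold higher and 0% of those 2-fold lower. It called 94% of those 8-fold higher and 12% of those 8-fold lower. An absence of calls therefore does not show an absence of 2-fold differences. TMM over all tested genes is the planned normalization; 3 others were tried, and the restriction of TMM to abundant genes was chosen after the calls of several fits had been seen. The 2 sums of a library come from the same nuclei suspension, which pairs them.

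The members and gene lists were chosen with earlier results of these data known. Genes between libraries were named by a rule: the 5 highest and 5 lowest ratios, and up to 3 of each list, past 2-fold with an interval that leaves out 0 and a level at or above that of nuclei without macrophage UMIs. Named whatever their level were the 5 marker genes, Tyrobp, Apoe, Cd9, Fabp5, Spp1, Ccr2, Mitf, Mmp12, H2-Aa, Il1b, Nlrp3, Slc5a1 and Slc5a2; some genes that the rule names are not reported here. The rule named no gene for members against other macrophages, where genes past the threshold would have been named; Lilrb4a, Lilr4b, Psap, Cd63, Tcirg1, Cd74, Clec10a, Maf, Csf3r and Lyz2 were chosen after their values were seen. Alternatives covered the gates, depth, normalization, the filter on low counts and leaving out each library.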

Additional observations from a re-analysis of the deposited data

How the results depend on the processing

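Counts of called genes stayed at 0 in either direction in most settings. Genes higher in members numbered 1 with TMM over genes with at least 300 UMIs (Lilrb4a). In nuclei of the wider gate, which are not members alone, 1 gene was higher than in nuclei with 0 marker UMIs (Lilr4b). With that gate, comparator and TMM together there were 3 (Lilr4b, Lilrb4a and Psap). With that comparator alone 0 genes were called. Genes lower numbered 2 with at least 3 macrophage UMIs, 2 in nuclei thinned to 1000 UMIs and 25 in nuclei thinned to 500. The median log2 ratio of all genes in those fits was -0.51, -0.73 and -1.10, in that order. Without the replicate block and leaving out each library in turn, 0 genes were called in either direction, as with edgeR on DESeq2 size factors, without factors and with DESeq2. The log2 ratio of Lilrb4a ran from -0.29 to 0.90. Thinning to 500, the wider gate, its 1-UMI form (both against nuclei with 0 marker UMIs), TMM over genes with at least 300 UMIs, the fit without factors and the removal of the deepest members were added with the values already known.

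Single genes changed direction as follows. Lilrb4a was at -0.016 with at least 3 marker UMIs and at -0.29 at 500 UMIs. Lilr4b was at -0.054 with at least 3 macrophage UMIs, at -0.092 with stricter nuclei and at -0.0077 without a filter. Psap was at -0.36 with at least 3 macrophage UMIs and at -0.43 at 500 UMIs. The median log2 ratio of all genes was -0.93 with at least 3 marker UMIs, -1.10 at 500 UMIs and -0.51 with at least 3 macrophage UMIs. It was -0.34 with stricter nuclei and -0.99 without a filter. Each of these values of Lilrb4a, Lilr4b and Psap lay above the median of its own fit. Maf was at 0.0024 with the wider gate, at 0.22 in nuclei with exactly 1 UMI of the 4 genes, and at 0.11 and 0.38 in the same settings with TMM over genes with at least 300 UMIs. In these Maf settings the nuclei tested were not the members, or not the members alone. The cause of the changes in direction was not tested. Cd74 was past the threshold at 500 UMIs (log2 -2.34, edgeR adjusted p = 0.0415) and Maf with at least 3 macrophage UMIs (log2 -2.06, edgeR adjusted p = 0.031). Both fits leaned to lower over all genes. At an unadjusted edgeR p under 0.05, 353 genes were lower and 0 higher at 500 UMIs. With at least 3 macrophage UMIs, 222 were lower and 11 higher. The 2 calls therefore carry the offset of their fits.

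Thinning to 500 UMIs put the log2 ratio of shares of macrophage nuclei at 0.84 for MI-NS over Sham-NS and 0.67 for MI-DAPA over MI-NS, and of quality-gate nuclei at 0.41 and 0.68.

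Counts of genes past 2-fold between libraries rest on few measurable genes and moved with that number. For MI-NS over Sham-NS, higher and lower genes numbered 4 and 5 with at least 3 marker UMIs, 2 and 7 with at least 3 macrophage UMIs, 0 and 6 at 1000 UMIs, 2 and 0 at 500, 153 and 148 with a minimum of 10 UMIs and 2 and 7 with 60; without Tnfaip2 there were 5 higher. For MI-DAPA over MI-NS they numbered 5 and 4 with at least 3 marker UMIs, 6 and 3 without Tnfaip2, 6 and 0 with 0 lineage UMIs, 5 and 4 with at least 3 macrophage UMIs, 2 and 0 at 1000 UMIs, 0 and 1 at 500, 157 and 112 with a minimum of 10 UMIs and 3 and 1 with 60; without the deepest members there were 0 lower. TMM factors shifted all log2 ratios by 0.07 for MI-NS over Sham-NS and by -0.17 for MI-DAPA over MI-NS, which put the cardiomyocyte median at 1.66 and the myeloid median at 0.037. No paired analysis between libraries was possible because each group is 1 library. With 12 to 36 members a library, most genes are below the depth at which 2-fold differences can be seen.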
